A study of Mus musculus with 24 samples.

Results

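The aminoacyl-tRNA synthetases were followed at the level of their mRNAs in mouse embryonic stem cells in which heme synthesis was inhibited. The members are the genes with the symbols of these enzymes: 20 genes of the cytosolic enzymes (Aars, Cars, Dars, Eprs, Farsa, Farsb, Gars, Hars, Iars, Kars, Lars, Mars, Nars, Qars, Rars, Sars, Tars, Vars, Wars and Yars) and 16 genes of the mitochondrial enzymes (Aars2, Cars2, Ears2, Fars2, Hars2, Iars2, Lars2, Mars2, Nars2, Pars2, Rars2, Sars2, Tars2, Vars2, Wars2 and Yars2). All 36 were found under these symbols among the 23762 symbols of the count table, and all 36 passed the filter on low counts that left 16067 genes to test.

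A synthetase attaches an amino acid to the tRNAs that read its codons, and Eprs holds the enzymes for both glutamate and proline in a single chain. Most synthetases serve either the ribosomes of the cytosol or those of the mitochondrion. Both sets of enzymes are encoded in the nucleus, and the mitochondrial enzymes serve the small set of respiratory chain proteins made inside the organelle. Kars and Gars encode both the cytosolic and the mitochondrial form of their enzyme, and mitochondria charge their glutamine tRNA through an amidation step rather than through a glutaminyl-tRNA synthetase of their own. Many cytosolic synthetase genes are induced by ATF4, the transcription factor of the integrated stress response, which is switched on when a kinase such as the heme-regulated Eif2ak1 phosphorylates the translation factor eIF2α.

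The study asked how heme synthesis bears on the exit of mouse ESCs from the naive state. Cells of the line ES-E14TG2a were held naive in LIF with the GSK3 inhibitor CHIR99021 and the MEK inhibitor PD0325901 (2iL), or moved for 48 hr to FGF2 and activin A on fibronectin, which yields epiblast-like cells (EpiLC). Each state was sampled untreated, with 0.5 mM succinylacetone (SA), an inhibitor of the heme synthesis enzyme ALAD, and with SA plus 10 μM hemin (SA+H), an oxidized form of heme. The 6 groups, 2iL, 2iL+SA, 2iL+SA+H, EpiLC, EpiLC+SA and EpiLC+SA+H, hold 4 libraries each, all from 1 cell line, and hemin was not given without SA.

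The libraries held between 1857964 and 9069538 counts. Replicate 3 of 2iL+SA, replicate 3 of EpiLC and replicate 1 of EpiLC+SA+H were shallow, under 3000000 counts. The numbers of synthetases found to differ, the class medians and the tests given with an adjusted p below were also computed without them. Counts of non-overlapping groups, class means and sums, and counts over most other gene lists used all libraries. All 5 pluripotency markers were detected in every group. Summed markers of the naive state fell between 3383 and 3517 CPM (the counts of a gene scaled to a common library total) in 2iL and between 97.8 and 592 CPM in EpiLC, and those of the primed state between 68.4 and 109 CPM in 2iL and between 1505 and 2389 CPM in EpiLC. In EpiLC+SA the naive markers summed to between 569 and 1023 CPM and the primed markers to between 302 and 896 CPM. The share of counts from mitochondrially encoded genes was 5.78 to 7.90% in untreated EpiLC, 8.31 to 13.5% with SA and 7.0 to 8.68% with SA and hemin. The part of these shifts in state and in mitochondrial transcripts in the results below was not tested. In such bulk samples fewer cells that express a gene and less RNA per cell cannot be told apart.

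Mitochondrial synthetase genes were compared first between EpiLC+SA and EpiLC, to see what inhibition of heme synthesis did to cells in transition. Of the 16 genes, 4 fell with SA (Wars2, Rars2, Pars2 and Mars2) and 1 rose (Tars2), by edgeR's quasi-likelihood test at a Benjamini-Hochberg adjusted p under 0.05. Over all genes tested 27.9% were called in this comparison, 12.1% higher and 15.8% lower, so the share of mitochondrial synthetases called, 31.2%, was close to that of genes at large and is not a feature of the class. Groups of libraries that did not overlap were counted apart: 4 genes lay below and 1 above, beside 13.1% and 12.5% of all genes. The log2 fold change was negative for 13 of the 16, with a median of -0.32, against -0.00 over all genes.

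Wars2, which charges the mitochondrial tryptophan tRNA, showed the largest difference of the 36 genes. Its levels were 8.71, 17.5, 22.8 and 10.7 CPM in the EpiLC libraries and 2.59, 3.62, 2.53 and 4.82 CPM in those of EpiLC+SA. The groups did not overlap, and Wars2 was 4.29-fold lower with SA (log2 fold change -2.10, SE 0.31, adjusted p = 1.6e-05, edgeR). The EpiLC+SA libraries held 16, 17, 12 and 28 reads of this gene, which limits the precision of each value.

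Rars2, the arginyl enzyme of the mitochondrion, stood at 33.2, 41.4, 36.4 and 37.6 CPM in EpiLC and at 24.1, 11.9, 13.1 and 15.0 CPM in EpiLC+SA, so that every SA library was below every untreated one (-1.21, SE 0.23, adjusted p = 3.08e-04, edgeR). Pars2, the prolyl enzyme, was at 9.67, 11.2, 6.58 and 8.71 CPM in EpiLC and at 4.37, 3.40, 2.74 and 2.07 CPM in EpiLC+SA, again without overlap (-1.53, SE 0.29, adjusted p = 3.15e-04, edgeR). Mars2, the methionyl enzyme, which also serves the formylated initiator tRNA of mitochondria, was at 10.3, 13.4, 11.6 and 7.49 CPM in EpiLC and at 5.66, 7.44, 2.53 and 3.79 CPM in EpiLC+SA. The highest SA library of Mars2 lay just under the lowest untreated one (-1.12, SE 0.28, adjusted p = 0.00413, edgeR).

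Tars2, the mitochondrial threonyl enzyme, moved the other way. It was at 32.4, 29.8, 25.9 and 27.2 CPM in EpiLC and at 48.1, 39.6, 64.0 and 46.5 CPM in EpiLC+SA. All SA libraries were above all untreated ones (0.78, SE 0.19, adjusted p = 0.00332, edgeR). The 5 mitochondrial calls were kept when any 1 library was left out, with adjusted p values of at most 0.0208, and without the 3 shallow libraries, where 6 mitochondrial genes were called and 33% of all genes.

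**Figure D1:**
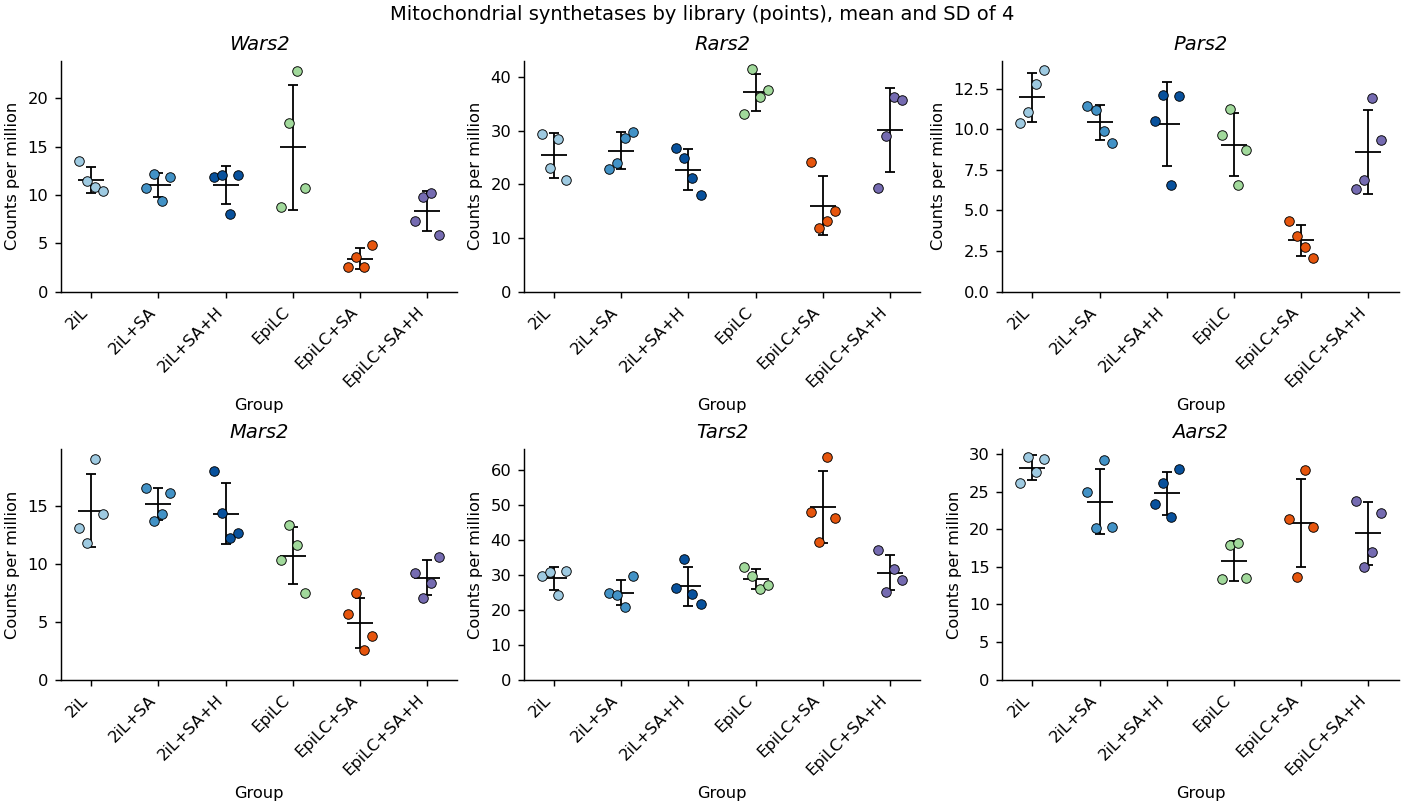
TMM-scaled CPM (y axis) of Wars2, Rars2, Pars2, Mars2, Tars2 and Aars2 in each of the 24 libraries, by group (x axis), with the mean and SD of 4 libraries. Wars2, Rars2, Pars2 and Mars2 have their lowest group mean in EpiLC+SA, Tars2 has its highest there, with libraries from 39.6 to 64.0 CPM, and Aars2 is lower in EpiLC than in 2iL.

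The DNA around the start sites of these genes is shown for Wars2, Rars2 and Mars2, which fell, and Tars2, which rose. The sequences are from RefSeq on GRCm38.p6, 5′ to 3′ on the strand of the gene. Capitals mark the letters GCATGCGC or CCGGAAG in either orientation. The first is a form of the site of NRF-1, a regulator of nuclear genes for mitochondria, and the second a form of the site of ETS factors. Only these exact letters were searched, so a stretch without capitals may still hold another form of either site. These motifs were chosen after the values were seen. The RefSeq start of Tars2 lies 5229 bases inside the GENCODE gene and 94 bases from the nearest GENCODE transcript start, while those of the other genes shown are within 22 bases of the start of the gene.
Wars2, chr3:99140990-99141109, plus strand: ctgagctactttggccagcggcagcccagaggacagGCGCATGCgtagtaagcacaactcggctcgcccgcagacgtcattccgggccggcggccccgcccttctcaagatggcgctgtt
Rars2, chr4:34614857-34614976, plus strand: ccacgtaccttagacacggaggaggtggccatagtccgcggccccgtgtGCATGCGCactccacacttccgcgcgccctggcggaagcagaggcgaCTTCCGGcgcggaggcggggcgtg
Mars2, chr1:55237077-55237196, plus strand: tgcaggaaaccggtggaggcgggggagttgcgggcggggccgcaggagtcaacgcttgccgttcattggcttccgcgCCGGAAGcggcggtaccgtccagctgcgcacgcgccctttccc
Tars2, chr3:95754958-95755077, minus strand: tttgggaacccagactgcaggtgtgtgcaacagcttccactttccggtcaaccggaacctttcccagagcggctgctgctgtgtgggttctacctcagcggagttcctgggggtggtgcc

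A promoter from 250 bases before to 50 after the start site was at hand for 26 of the 36 members, 12 cytosolic and 14 mitochondrial, and not for Cars, Hars, Lars, Mars, Nars, Rars, Vars, Wars, Hars2 and Pars2. On either strand, GCATGCGC was in 3 of the 14 mitochondrial promoters (Rars2, Vars2 and Wars2) and 0 of the 12 cytosolic ones, and in 2.71% of 32851 promoters. CCGGAAG was in 4 mitochondrial promoters (Cars2, Mars2, Rars2 and Sars2) and 4 cytosolic ones (Farsa, Gars, Kars and Sars), and in 8.86% of all promoters. A match describes the letters of a window and is not a measured binding site.

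Cytosolic synthetase genes were also called at close to the general rate in EpiLC+SA against EpiLC when all libraries were used. Of 20 genes, 5 fell (Cars, Wars, Sars, Nars and Lars) and 1 rose (Qars), a share of 30.0% beside 27.9% of all genes. DESeq2 called 7 of 20, 35% beside 32.0% of all genes. Without the 3 shallow libraries 9 of 20 were called, 45% beside 33.0% of all genes. Every SA library lay below every untreated one for 4 of the 20 (Cars, Gars, Sars and Wars) and above for 1 (Qars). Of all genes 13.1% lay below and 12.5% above in this way. The median log2 fold change of the class was -0.23, with 13 negative and 7 positive.

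Cars charges the cysteine tRNA. Its levels were 115, 166, 283 and 139 CPM in EpiLC and 85.9, 74.4, 71.8 and 84.7 CPM in EpiLC+SA. The groups did not overlap (-1.14, SE 0.24, adjusted p = 8.21e-04, edgeR), and the spread in EpiLC was set by replicate 3, 1 of the shallow libraries. A pseudogene on the opposite strand, Gm15580, shares 211 exonic bases with Cars, and whether the counting used strand is not given in the sources used here, so the reads of the 2 could not be told apart.

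Wars, the tryptophanyl enzyme, was at 32.2, 45.1, 40.6 and 41.0 CPM in EpiLC and at 20.6, 13.2, 18.8 and 28.2 CPM in EpiLC+SA, all below (-0.97, SE 0.22, adjusted p = 0.00159, edgeR). Sars, the seryl enzyme, was at 350, 593, 800 and 425 CPM in EpiLC and at 238, 252, 234 and 268 CPM in EpiLC+SA, also all below (-1.13, SE 0.26, adjusted p = 0.00237, edgeR). With Wars and Wars2 the mRNAs of the tryptophan enzymes of both compartments were thus lower with SA. Sars2, the mitochondrial seryl enzyme, had a log2 fold change of -0.23 and was not called.

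Nars, the asparaginyl enzyme, was at 456, 783, 601 and 624 CPM in EpiLC and at 354, 332, 372 and 459 CPM in EpiLC+SA, where the highest SA library just passed the lowest untreated one (-0.70, SE 0.20, adjusted p = 0.00983, edgeR). Lars, the leucyl enzyme, had a log2 fold change of -0.79 (SE 0.22, adjusted p = 0.0102, edgeR), also with overlap. The calls of Cars, Wars, Sars, Nars and Lars were kept when any 1 library was left out, at adjusted p values of at most 0.0428.

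Qars, the glutaminyl enzyme, was the cytosolic gene that rose. It was at 122, 119, 97.6 and 111 CPM in EpiLC and at 148, 162, 124 and 171 CPM in EpiLC+SA. The groups were apart by a small margin (0.43, SE 0.15, adjusted p = 0.0375, edgeR). This call was lost without EpiLC replicate 3 or 4 (adjusted p = 0.121 and 0.0718, edgeR) and without EpiLC+SA replicate 1, 2 or 4 (adjusted p = 0.0561, 0.0870 and 0.117, edgeR). It was also lost with no filter on low counts (0.0913) and in a fit to only the groups compared (0.128).

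**Figure D2:**
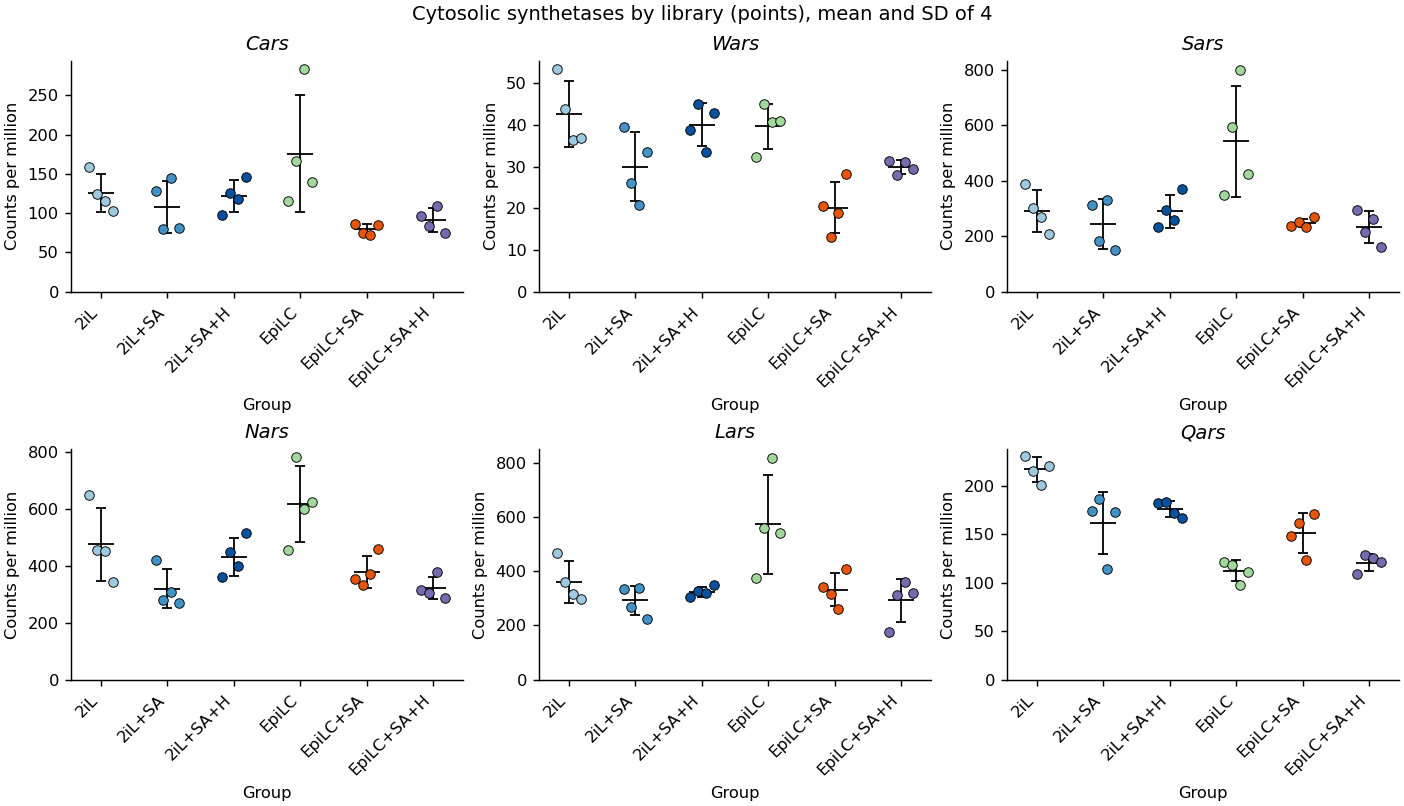
TMM-scaled CPM (y axis) of Cars, Wars, Sars, Nars, Lars and Qars in each library, by group (x axis), with the mean and SD of 4 libraries. Cars, Wars, Sars, Nars and Lars have a lower mean in EpiLC+SA than in EpiLC, with overlap for Nars and Lars, and Qars is lower in the EpiLC groups than in 2iL.

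Cells in transition given SA and hemin were next compared with those given SA alone. Of the mitochondrial synthetases 4 of 16 rose (Pars2, Wars2, Rars2 and Mars2) and 1 fell (Tars2), a share of 31.2% beside 16.5% of all genes, of which 10.5% were higher and 5.95% lower. These are the 5 genes called with SA, each in the opposite direction, but the EpiLC+SA libraries enter both comparisons, so that the second does not stand on its own. The groups did not overlap for 2 mitochondrial genes above (Pars2 and Wars2) and 1 below (Tars2), and for 1 cytosolic gene below (Dars), where 11% of all genes were above and 9.14% below. Of the cytosolic genes 1 of 20 was called, which is 5%.

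Pars2 was at 6.29, 6.85, 11.9 and 9.36 CPM in EpiLC+SA+H, all above the highest EpiLC+SA library at 4.37 CPM (1.47, SE 0.29, adjusted p = 7.96e-04, edgeR). Wars2 was at 7.26, 9.79, 10.2 and 5.89 CPM with hemin, all above the 4.82 CPM of the highest library with SA alone (1.29, SE 0.31, adjusted p = 0.0044, edgeR). Rars2 was at 19.4, 29.0, 36.3 and 35.8 CPM with hemin, and its lowest library, the shallow replicate 1, fell under the 24.1 CPM of EpiLC+SA replicate 1 (0.92, SE 0.23, adjusted p = 0.00556, edgeR). These 3 calls were kept when any 1 library was left out, at adjusted p values of at most 0.0249.

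Tars2 was at 37.3, 25.3, 31.7 and 28.6 CPM in EpiLC+SA+H, all below the EpiLC+SA libraries (-0.70, SE 0.19, adjusted p = 0.0113, edgeR). Without EpiLC+SA replicate 3, the highest at 64.0 CPM and the one with 13.5% of mitochondrially encoded counts, the Tars2 difference was -0.52 and not called (adjusted p = 0.0765, edgeR). Mars2 overlapped between the groups, with 9.20, 7.01, 8.38 and 10.6 CPM with hemin (0.86, SE 0.28, adjusted p = 0.0374, edgeR). The Mars2 call was lost without EpiLC+SA replicate 3 or 4 (adjusted p = 0.115 and 0.107, edgeR) or with replicate 3 or 4 of EpiLC+SA+H left out (adjusted p = 0.0604 and 0.104, edgeR), and also with no filter (0.0639) and with only the groups compared (0.115).

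The cytosolic gene called with hemin was Vars, the valyl enzyme, at 163, 200, 273 and 215 CPM in EpiLC+SA and 174, 152, 129 and 130 CPM in EpiLC+SA+H. The groups overlapped (-0.54, SE 0.19, adjusted p = 0.0497, edgeR). The Vars call was lost without EpiLC+SA replicate 2, 3 or 4 (adjusted p = 0.0853, 0.229 and 0.124, edgeR) or with replicate 2, 3 or 4 of EpiLC+SA+H left out (adjusted p = 0.0789, 0.132 and 0.144, edgeR). It was also lost with the size factors of DESeq2, no filter, a minimum count of 20 or only the groups compared (adjusted p = 0.0529 to 0.0862, edgeR). Of the cytosolic genes that fell with SA none was called with hemin: the log2 fold changes were 0.19 for Cars, 0.56 for Wars, -0.10 for Sars, -0.24 for Nars and -0.18 for Lars.

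**Figure D3:**
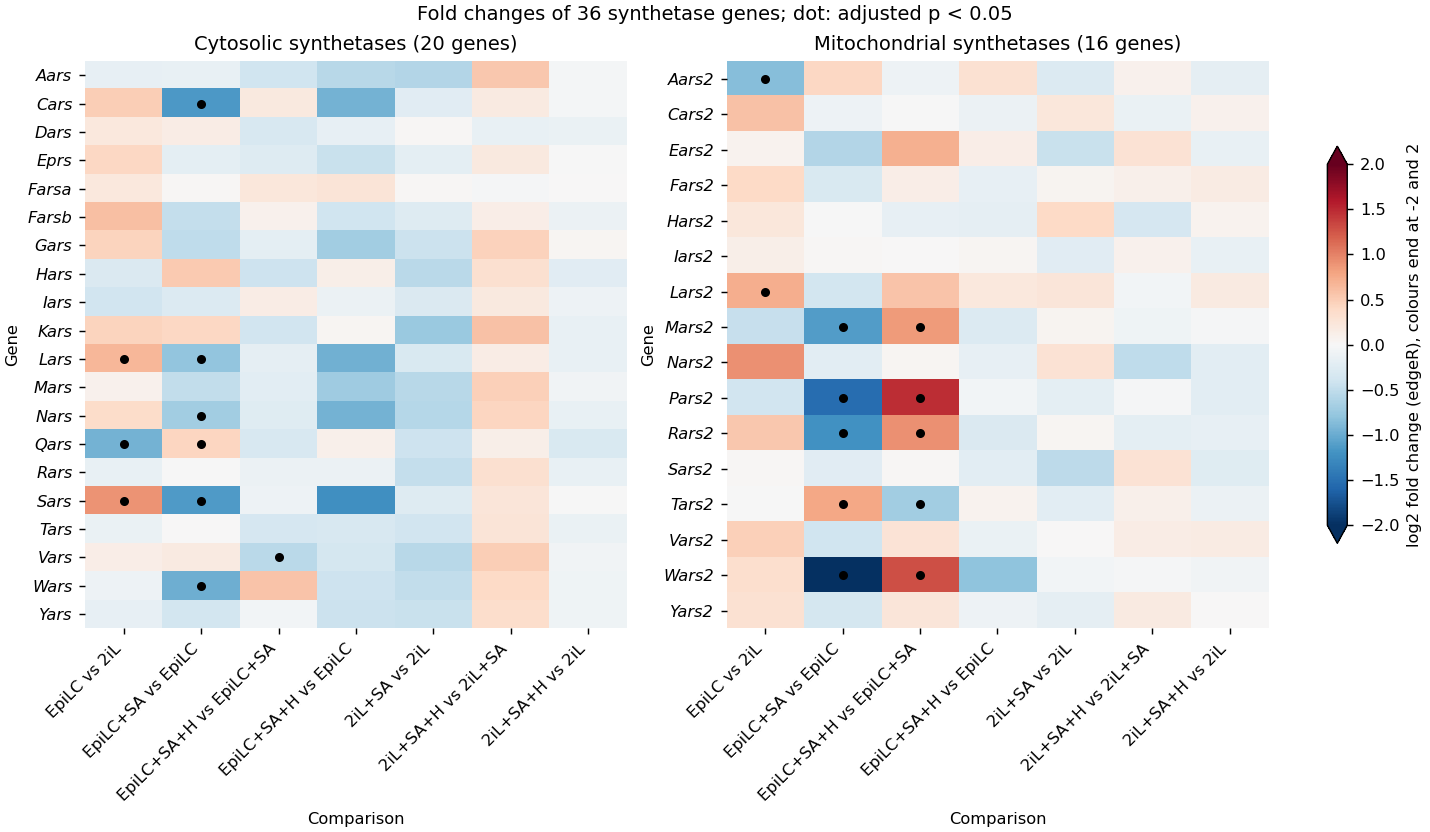
Log2 fold changes of the 36 synthetase genes, cytosolic on the left and mitochondrial on the right, in the 7 comparisons between pairs of groups, on a colour scale that ends at -2 and 2, with a dot where the adjusted p was under 0.05. Dots stand in the 3 comparisons EpiLC vs 2iL, EpiLC+SA vs EpiLC and EpiLC+SA+H vs EpiLC+SA, and Wars2 has the darkest cell, at -2.10 with SA in EpiLC.

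Cells in transition given SA and hemin were then set against untreated EpiLC. By edgeR 0 of 20 cytosolic and 0 of 16 mitochondrial genes were called, in a comparison with 0.0622% of all genes called, 0.0436% higher and 0.0187% lower. At an unadjusted p under 0.05 there were 9 cytosolic genes and 1 mitochondrial gene, beside 10.4% of all genes. DESeq2 called 5 cytosolic genes (Cars, Lars, Mars, Nars and Sars) and 0 mitochondrial ones, beside 0.635% of all genes.

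In 8 of the 20 cytosolic genes (Cars, Gars, Lars, Mars, Nars, Sars, Tars and Wars) every EpiLC+SA+H library lay below every EpiLC library, where 2.26% of all genes did so, and 0 lay above, as 1.52% of all genes did. Nars had the smallest p of the class, at 315, 305, 377 and 288 CPM in EpiLC+SA+H and 456 or more in EpiLC (-0.94, SE 0.20, adjusted p = 0.0605, edgeR), and was called without EpiLC replicate 1 (adjusted p = 0.04, edgeR). Sars was at 295, 214, 261 and 160 CPM with SA and hemin and at 350 or more in EpiLC, a log2 fold change of -1.22. Without the 3 shallow libraries, 4 cytosolic genes were called: Aars (-0.69), Mars (-0.82), Nars (-0.93) and Sars (-1.10), beside 1.28% of all genes.

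The mitochondrial genes had a median log2 fold change of -0.12 in this comparison, against -0.40 in the cytosolic class, and all 16 overlapped. Wars2 had the smallest p, with a log2 fold change of -0.81 (SE 0.29, adjusted p = 0.316, edgeR). Pars2, Rars2 and Mars2 were at -0.06, -0.28 and -0.27.

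The mean log2 CPM of each class was taken in each library. For the 16 mitochondrial genes the mean was 4.22 to 4.61 in untreated EpiLC, 3.91 to 4.06 with SA and 4.26 to 4.34 with SA and hemin, so that the SA libraries lay below both others. The 4 genes that fell had a mean log2 fold change with SA of -1.49, but they were picked by this same comparison. The other 12, Tars2 among them, had a mean of -0.11 and a median of -0.22. For the 20 cytosolic genes it was 7.58 to 7.91 untreated, 7.36 to 7.68 with SA and 7.26 to 7.40 with SA and hemin, and there the libraries with hemin lay below the untreated ones and overlapped those with SA. Summed over genes, the cytosolic synthetases took 6025 ± 915 CPM in untreated EpiLC, 4815 ± 398 with SA and 4226 ± 445 with SA and hemin, and the mitochondrial ones 438 ± 46.0, 382 ± 23.1 and 418 ± 12.2 CPM (SD, n = 4 libraries each). These sums are weighted towards the genes with most reads and are given without a test.

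**Figure D4:**
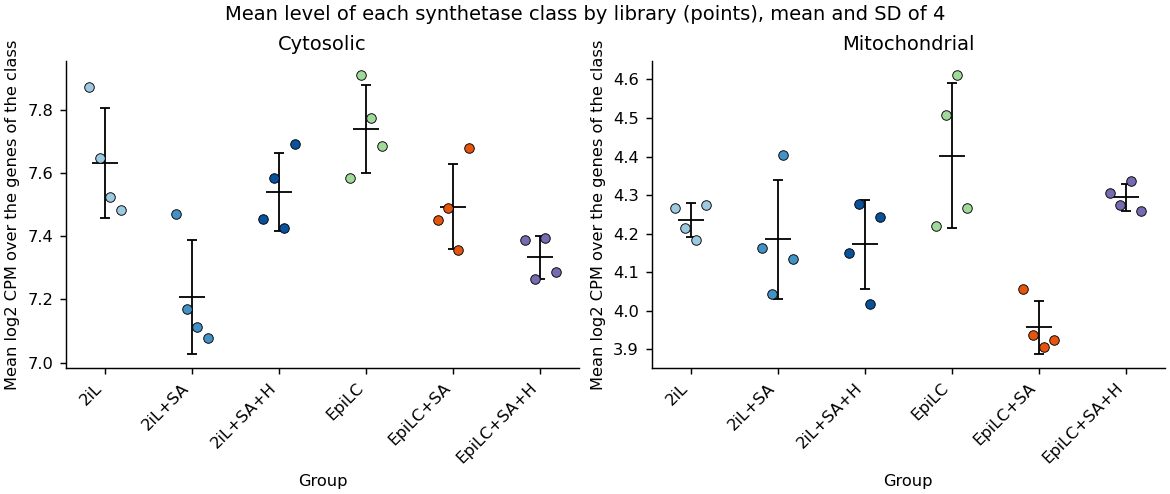
Mean log2 CPM (y axis) of the 20 cytosolic and the 16 mitochondrial synthetase genes in each library, by group (x axis). The mitochondrial values in EpiLC+SA, 3.91 to 4.06, lie below those of EpiLC and of EpiLC+SA+H, and the cytosolic values in EpiLC+SA+H, 7.26 to 7.40, lie below those of EpiLC.

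Whether SA acted differently in the 2 states was tested as the SA effect in EpiLC minus that in 2iL. Over all genes 14.3% differed, 5.27% with a higher and 9.07% with a lower effect in EpiLC. Of the mitochondrial genes 5 of 16 did: the effect was lower in EpiLC for Wars2 (-2.05, SE 0.41, adjusted p = 0.00178), Rars2 (-1.25, SE 0.32, adjusted p = 0.0101), Pars2 (-1.34, SE 0.39, adjusted p = 0.0222) and Mars2 (-1.19, SE 0.38, adjusted p = 0.0384), and higher for Tars2 (0.98, SE 0.27, adjusted p = 0.0154), all by edgeR. In 2iL the log2 fold changes with SA of these genes were -0.05, 0.04, -0.19, 0.06 and -0.21.

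The levels in the naive state show this directly. Wars2 was at 13.5, 11.4, 10.8 and 10.4 CPM in 2iL and 10.7, 12.1, 9.35 and 11.9 CPM in 2iL+SA. Rars2 was at 29.5, 23.0, 28.4 and 20.9 CPM in 2iL and 22.8, 24, 28.6 and 29.8 CPM in 2iL+SA. In both genes the naive groups overlapped.

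Of the cytosolic genes 2 of 20 differed between the states. Qars was higher with SA in EpiLC and had a log2 fold change of -0.42 in 2iL (difference 0.84, SE 0.22, adjusted p = 0.0104, edgeR). Kars, the lysyl enzyme of both compartments, had a log2 fold change of 0.42 in EpiLC and -0.74 in 2iL, neither of them called (difference 1.16, SE 0.36, adjusted p = 0.0331, edgeR). The 2iL+SA libraries of Kars were at 134, 147, 55.0 and 136 CPM, below the 192 to 215 CPM of 2iL, and replicate 3 was the shallow one. The EpiLC values of Kars were 356, 294, 118 and 312 CPM, with the shallow replicate again far below the others, and those of EpiLC+SA were 337, 419, 312 and 376 CPM.

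Some of these differences rested on few libraries. That of Kars was lost without 2iL replicate 2, 3 or 4 (adjusted p = 0.0540, 0.0502 and 0.0600, edgeR) and without EpiLC+SA replicate 2 or 4 (adjusted p = 0.0595 and 0.0554, edgeR), and that of Pars2 without EpiLC+SA replicate 4 (adjusted p = 0.0572, edgeR). That of Mars2 was lost without 2iL replicate 1, 2 or 4 (adjusted p = 0.0696, 0.0821 and 0.0638), 2iL+SA replicate 1 or 4 (0.0580 and 0.0617), EpiLC replicate 2 or 3 (0.0780 and 0.0536) or EpiLC+SA replicate 3 or 4 (0.0798 and 0.0887). The Mars2 difference was also lost with a replicate block (0.0503), no filter (0.0680) and only the groups compared (0.0545), and that of Kars with only the groups compared (0.0609). Those of Wars2, Rars2, Qars and Tars2 were kept when any 1 library was left out.

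**Figure D5:**
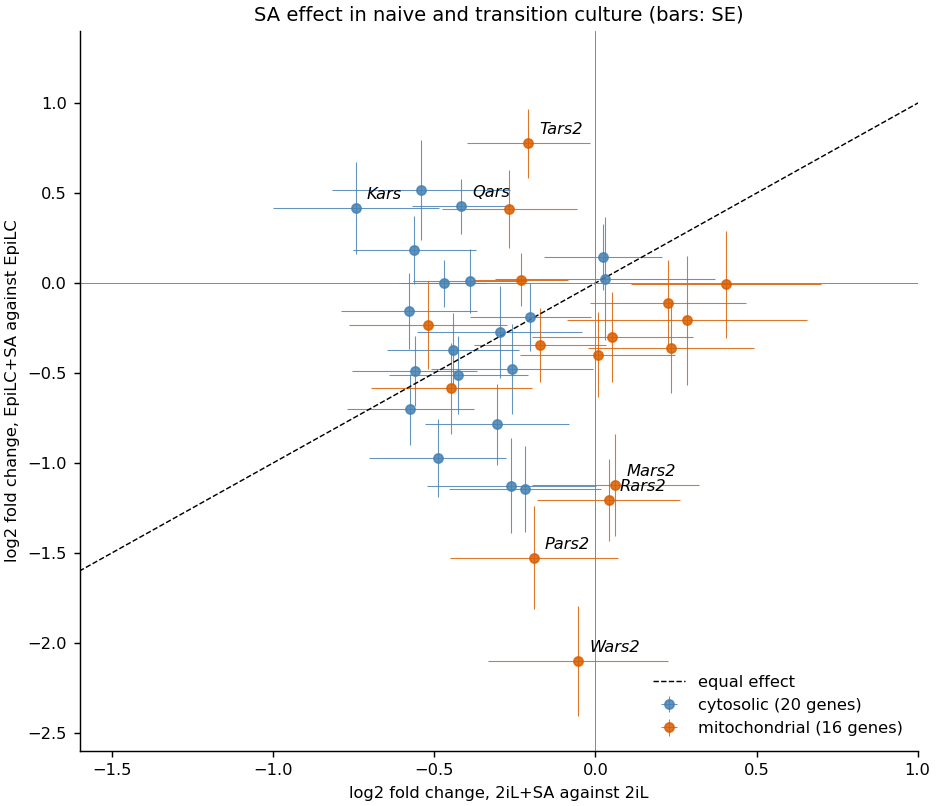
Log2 fold change with SA in 2iL (x axis) against that in EpiLC (y axis) for each synthetase gene, with bars of 1 standard error and a dashed line of equal effects. The 7 named genes differed between the states: Wars2, Pars2, Rars2 and Mars2 lie below the line, and Tars2, Qars and Kars above it.

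The effect of hemin also differed between the states for 3 members, where 6.33% of all genes differed, 4.57% higher and 1.76% lower in EpiLC. It was higher in EpiLC for Pars2 (1.49, SE 0.39, adjusted p = 0.0204, edgeR) and Rars2 (1.12, SE 0.32, adjusted p = 0.0324, edgeR) and lower for Vars (-1.03, SE 0.27, adjusted p = 0.02, edgeR). Vars had a log2 fold change with hemin of 0.49 in 2iL and -0.54 in EpiLC. The Pars2 difference was lost without EpiLC+SA+H replicate 3 (adjusted p = 0.0583), and that of Vars without 2iL+SA+H replicate 4 or EpiLC+SA replicate 3 (adjusted p = 0.0561 and 0.0571). That of Rars2 was lost without 2iL+SA replicate 4, 2iL+SA+H replicate 4, EpiLC+SA replicate 2, 3 or 4, or EpiLC+SA+H replicate 3 or 4 (adjusted p = 0.0610 to 0.0740, edgeR), and also with no filter (0.0555) and only the groups compared (0.0599).

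The transition itself was read from EpiLC against 2iL. Of 20 cytosolic genes 3 were called (Qars lower, Sars and Lars higher) and of 16 mitochondrial genes 2 (Aars2 lower, Lars2 higher), 15% and 12.5% beside 28.3% of all genes, 15% higher and 13.4% lower. The mitochondrial count depended on the processing: DESeq2 called 5 of 16, beside 32.1% of all genes, and 4 were called with the size factors of DESeq2 and 4 without the shallow libraries. The EpiLC libraries lay above all 2iL libraries for 1 cytosolic gene (Farsb) and 3 mitochondrial ones (Cars2, Lars2 and Rars2), and below for 1 of each (Qars and Aars2), beside 13.7% of all genes above and 16.1% below. Qars was at 231, 215, 201 and 220 CPM in 2iL, all above the 97.6 to 122 CPM of EpiLC (-0.95, SE 0.15, adjusted p = 3.55e-05, edgeR). Aars2, the mitochondrial alanyl enzyme, was at 26.1, 29.6, 27.6 and 29.3 CPM in 2iL and 13.4, 17.9, 18.2 and 13.5 CPM in EpiLC, also without overlap (-0.85, SE 0.21, adjusted p = 0.00366, edgeR). The calls of Qars and Aars2 were kept when any 1 library was left out.

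The genes that rose in the transition did so less firmly. Sars was at 387, 303, 270 and 207 CPM in 2iL and overlapped EpiLC (0.89, SE 0.26, adjusted p = 0.0118, edgeR), and its call was lost without 2iL replicate 4 (adjusted p = 0.0508), without EpiLC replicate 3 (0.0652) and without the shallow libraries (0.0520). Lars was at 468, 360, 317 and 296 CPM in 2iL and 374, 559, 818 and 540 CPM in EpiLC (0.67, SE 0.22, adjusted p = 0.0259, edgeR), and was lost without 2iL replicate 2, 3 or 4 (adjusted p = 0.0566, 0.0786 and 0.0855) or EpiLC replicate 3 (0.129), and with only the groups compared (0.0542). Lars2, the mitochondrial leucyl enzyme, was at 7.92, 8.58, 6.41 and 6.73 CPM in 2iL and 10.8, 12.1, 13.5 and 12.9 CPM in EpiLC, without overlap (0.73, SE 0.25, adjusted p = 0.0333, edgeR). It was lost without 2iL replicate 1, 3 or 4 (adjusted p = 0.0545, 0.0940 and 0.0816) without EpiLC replicate 2, 3 or 4 (adjusted p = 0.0600, 0.0635 and 0.0688) and with no filter (0.0704).

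In naive cells SA gave no call among the 36 genes: edgeR called 0 of 20 cytosolic and 0 of 16 mitochondrial genes, in a comparison with 0.0498% of all genes called, 0.0249% in each direction. At an unadjusted p under 0.05 there were 10 cytosolic genes and 1 mitochondrial gene, beside 12.7% of all genes, and DESeq2 called 1 cytosolic gene, Rars, beside 1.64% of all genes. The cytosolic log2 fold changes were negative in 18 of 20, with a median of -0.42, and in 6 (Aars, Hars, Kars, Qars, Rars and Vars) every SA library lay below every 2iL library, as 6.9% of all genes did, and 0 above, as 5.34% did. Among the mitochondrial genes all 16 overlapped. Rars, the arginyl enzyme, was at 182, 177, 181 and 171 CPM in 2iL and 125, 132, 117 and 137 CPM in 2iL+SA (-0.47, SE 0.13, adjusted p = 0.136, edgeR). Sars2 had the smallest p of the mitochondrial genes, at 16.4, 13.8, 12.2 and 15.1 CPM in 2iL and 10.8, 8.24, 12.7 and 9.18 CPM in 2iL+SA (-0.52, SE 0.25, adjusted p = 0.375, edgeR).

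With hemin added to SA in naive cells, 0 of 36 members were called, as were 0% of all genes by edgeR. Here 7 cytosolic and 0 mitochondrial genes had an unadjusted p under 0.05, beside 4.59% of all genes, and DESeq2 called 0 members. The cytosolic log2 fold changes were positive in 18 of 20, with a median of 0.29. Rars was the 1 member whose groups did not overlap, above with hemin, where 2.12% of all genes were above and 1.48% below. Vars was at 131, 131, 80.3 and 119 CPM in 2iL+SA and 147, 173, 122 and 210 CPM in 2iL+SA+H (0.49, SE 0.19, adjusted p = 0.988, edgeR). Nars2, the mitochondrial asparaginyl enzyme, was at 5.35, 4.33, 10.5 and 5.80 CPM in 2iL+SA and 3.67, 4.47, 6.46 and 2.41 CPM in 2iL+SA+H (-0.50, SE 0.38, adjusted p = 0.988, edgeR). Both genes overlapped between the groups.

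Against untreated 2iL, 2iL+SA+H also gave 0 calls among the members by edgeR, with 0 at an unadjusted p under 0.05 (4.88% of all genes), 0 by DESeq2 and 0.00622% of all genes called. Hars, Qars and Rars lay below all 2iL libraries, and 0 members above, beside 3.04% and 2.78% of all genes. Qars, at 183, 184, 172 and 167 CPM with SA and hemin, was the one with the smallest p (-0.30, SE 0.15, adjusted p = 1, edgeR). Iars2, the mitochondrial isoleucyl enzyme, was at 97.0, 94.1, 92.9 and 120 CPM in 2iL and 92.8, 97.9, 74.1 and 99.2 CPM in 2iL+SA+H (-0.15, SE 0.15, adjusted p = 1, edgeR).

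Within the cytosolic class, 12 enzymes are on a list of genes known to be regulated by ATF4 (Aars, Cars, Eprs, Gars, Iars, Lars, Mars, Nars, Sars, Tars, Wars and Yars). With SA in EpiLC 0 of these rose and 5 fell, 11 of 12 had a negative log2 fold change, and the median was -0.50. This is 41.7% called, beside 27.9% of all genes, of which 15.8% fell. Of the other 8 cytosolic enzymes 1 rose and 0 fell, with a median of 0.17. With SA and hemin against untreated EpiLC, edgeR called 0 of the 12, but 12 of 12 were negative, with a median of -0.63 and 9 at an unadjusted p under 0.05, beside 10.4% of all genes, and the other 8 had a median of -0.04 and 0 at that level. In naive cells with SA both sets were lower by similar medians, -0.41 and -0.44. The difference between the sets was not tested.

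Of 29 genes under ATF4 outside the synthetases, 1 rose and 16 fell with SA in EpiLC and 12 were not called, with a median of -1.32. This is 58.6% called, beside 27.9% of all genes. Sesn2, a sestrin that restrains mTORC1, fell by 2.27 on the log2 scale (adjusted p = 2.94e-07, edgeR), Chac1, a glutathione-degrading enzyme, fell by 4.77 (adjusted p = 3.87e-06), Slc1a4, a neutral amino acid transporter, fell by 2.69 (adjusted p = 4.76e-06), and Stc2, a secreted glycoprotein, fell by 3.83 (adjusted p = 7.96e-06). Atf4, named after its values were seen, was at 232, 177, 185 and 239 CPM in EpiLC+SA and at 387 or more in EpiLC (-1.54, adjusted p = 0.00183, edgeR). The paper reports more phosphorylated eIF2α and less protein synthesis with SA, which it reads as activation of the integrated stress response. The values here are mRNA levels, and how they relate to those measurements was not tested.

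With hemin added to SA in EpiLC, 4 of these 29 genes rose and 3 fell, with a median of 0.02, which is 24.1% called beside 16.5% of all genes. Against untreated EpiLC, the cells with SA and hemin had 0 of the 29 called by edgeR, with 26 negative, a median of -1.06, 20 at an unadjusted p under 0.05 (10.4% of all genes) and 8 with no overlap, below (2.26% of all genes). With hemin against SA alone, Sesn2 rose by 1.56 (adjusted p = 6.41e-05, edgeR), Slc1a4 by 1.82 (adjusted p = 6.86e-04) and Chac1 by 2.37 (adjusted p = 0.00692). In the same comparison Slc3a2, a subunit of amino acid exchangers, fell by 1.32 (adjusted p = 0.018, edgeR). This call was lost without EpiLC+SA replicate 4 or EpiLC+SA+H replicate 1 (adjusted p = 0.0525 and 0.0608). Atf4 had a log2 fold change of 0.43 against SA alone and was not called (adjusted p = 0.429, edgeR). The message of Eif2ak1, the heme-regulated kinase, fell in the transition (-0.73, adjusted p = 3.87e-04, edgeR) and was not called with SA in EpiLC.

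The C/EBP-ATF response element that ATF4 binds was searched as TGATGNAAN on both strands of the promoters, a motif chosen after the values were seen. It was in 5 of the 12 cytosolic promoters at hand (Aars, Gars, Iars, Tars and Yars), 0 of the 14 mitochondrial ones and 3.95% of all promoters. Its letters are capitals in the windows printed here, from RefSeq on GRCm38.p6, 5′ to 3′ on the strand of the gene. The window of Aars holds the match at position -113 from the start site, and a further match of Aars at position 9 is not printed. The windows were picked by the match, so the likeness of the capitals was set by the search. The RefSeq start of Aars lies 698 bases and that of Yars 143 bases inside the GENCODE gene.
Aars, chr8:111033709-111033757, plus strand: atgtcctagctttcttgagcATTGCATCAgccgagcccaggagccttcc
Gars, chr6:55037950-55037998, plus strand: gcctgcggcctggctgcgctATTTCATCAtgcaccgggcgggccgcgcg
Iars, chr13:49682116-49682164, plus strand: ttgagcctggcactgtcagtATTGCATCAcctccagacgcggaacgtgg
Tars, chr15:11399646-11399694, minus strand: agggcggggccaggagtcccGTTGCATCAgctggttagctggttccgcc
Yars, chr4:129189886-129189934, plus strand: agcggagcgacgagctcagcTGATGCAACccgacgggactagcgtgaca
None of these 5 genes was called with SA in EpiLC: their log2 fold changes were -0.15 for Aars, -0.51 for Gars, -0.27 for Iars, 0.01 for Tars and -0.37 for Yars. With SA and hemin against untreated EpiLC they were -0.56, -0.70, -0.12, -0.32 and -0.43. Of the cytosolic genes that fell with SA, Cars, Wars, Nars and Lars had no promoter at hand and could not be searched. Sars had a promoter without the motif. The search therefore does not show whether the genes that fell hold the element.

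The multi-synthetase complex holds 8 of the cytosolic enzymes (Dars, Eprs, Iars, Kars, Lars, Mars, Qars and Rars) around 3 scaffold proteins. With SA in EpiLC 1 of these enzymes rose and 1 fell, with a median of -0.09, and of the 12 enzymes outside it 0 rose and 4 fell, with a median of -0.42. The shares called, 25% and 33.3%, were both near the 27.9% of all genes and are not a result about the complex. Aimp2, a scaffold of the complex, was at 92.1, 149, 133 and 82.7 CPM in untreated EpiLC, at 49.5, 35.1, 30.8 and 36.9 CPM with SA and at 170, 57.2, 77.4 and 73.9 CPM with SA and hemin. It fell with SA by 1.58 on the log2 scale (adjusted p = 2.24e-04, edgeR), and the libraries with hemin were all above those with SA alone (1.30, adjusted p = 0.00248, edgeR). The value of 170 CPM is that of the shallow library. Both Aimp2 calls were kept when any 1 library was left out. The annotated 3′ ends of Aimp2 and Eif2ak1 overlap on opposite strands, and whether the counting used strand is not given. Reads from that stretch could therefore not be assigned to either gene with certainty.

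Partners of the mitochondrial synthetases were also counted. Of 10 mitochondrial translation factors 2 rose (Guf1 and Gfm1) and 2 fell (Mtif2 and Mtif3) with SA in EpiLC, with a median of 0.02 and 40% called beside 27.9% of all genes. Mtif2 and Mtif3, the initiation factors, fell by 0.90 (adjusted p = 3.61e-04, edgeR) and by 1.60 (adjusted p = 0.00185, edgeR), and with hemin they rose by 0.88 and 1.77. Mtif3 was at 18.2, 12.7, 26.3 and 16 CPM in EpiLC and at 11, 5.95, 2.53 and 3.96 CPM in EpiLC+SA, without overlap. The calls of Guf1 and Gfm1, which encode elongation factors of the mitochondrial ribosome, were lost without EpiLC+SA replicate 3 (Guf1, adjusted p = 0.0511) and without EpiLC replicate 3 or EpiLC+SA replicate 2 or 4 (Gfm1, adjusted p = 0.0978, 0.0593 and 0.0584).

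Of 6 genes of mitochondrial tRNA amidation, initiator formylation and the selenocysteine route, 1 rose and 1 fell with SA in EpiLC, 33.3% beside 27.9% of all genes. Pstk and Sepsecs are on this list for the selenocysteine route, not as mitochondrial partners, and neither was called. Gatc, a subunit of the amidotransferase that makes the mitochondrial glutamine tRNA, fell by 0.95 with SA (adjusted p = 0.0108, edgeR) and rose by 1.11 with hemin (adjusted p = 0.00522, edgeR). Mtfmt, which formylates the initiator tRNA charged by Mars2, rose by 0.94 with SA (adjusted p = 0.0102, edgeR) and fell by 1.01 with hemin (adjusted p = 0.0098, edgeR). Both Mtfmt calls were lost without EpiLC+SA replicate 4 (adjusted p = 0.0513 and 0.0629).

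Of 4 genes of tRNA editing, which clear mischarged tRNAs, 1 rose and 2 fell with SA in EpiLC (27.9% of all genes called), and 2 rose with hemin (16.5% of all genes called). Prorsd1 fell by 1.01 with SA (adjusted p = 0.00529, edgeR) and rose by 0.96 with hemin (adjusted p = 0.0119, edgeR). Dtd2 fell by 1.23 with SA (adjusted p = 0.0125, edgeR), a call lost without EpiLC+SA replicate 4 (adjusted p = 0.0572), and rose by 1.68 with hemin (adjusted p = 0.00184, edgeR). Aarsd1 rose by 1.83 with SA (adjusted p = 0.0463, edgeR), a call lost without any 1 of EpiLC replicates 1, 3 and 4 or EpiLC+SA replicates 2, 3 and 4 (adjusted p = 0.0640 to 0.129), without the shallow libraries (0.0751) and with a replicate block (0.0680).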

How the data were processed

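The authors made QuantSeq 3' libraries and sequenced 50 bp of each fragment from 1 end. Alignment was to mm10 (HISAT2), counting per gene was by HTSeq 2.7.14, and reads with several matches in the genome were set aside, per the labels' processing notes and the methods. The deposited values are raw counts, whole numbers per gene symbol and library. The annotation and the strand setting are not given in the sources used here. The values printed are CPM scaled by TMM.

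Counts were tested with edgeR 4.0.16 (limma 3.58.1, R 4.3.3): filterByExpr at a minimum count of 5, TMM, a robust quasi-likelihood fit of 6 groups, and Benjamini-Hochberg adjustment over all 16067 genes, with a call at an adjusted p under 0.05. SE is the standard error of a log2 fold change. How replicates were grown is not stated in the labels, so p values measure the spread between libraries, which may be technical. Members and gene lists were chosen with earlier results of these data known. Full values are given for up to 4 cytosolic and 3 mitochondrial members per comparison with the smallest adjusted p among those called, for called members that moved against their class and, where none was called, for the 1 of each class with the smallest p. Genes of other lists are named among those called, up to 4 per list. The fit was tested on simulated data. The alternatives tried were no filter or a minimum count of 20, DESeq2 1.42.0 as a test, edgeR with the size factors of DESeq2, a fit that held only the groups compared, a block on replicate number, each library left out in turn, and the 3 shallow libraries left out together. Positions are those of GENCODE vM21 on GRCm38. Figures were drawn with matplotlib 3.10.9.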

Additional observations from a re-analysis of the deposited data

Results flagged for a closer look

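In 4 of 126 groups of 4 libraries checked, over 19 synthetase genes and the 2 class means, 1 library stood far from the rest, which is 3.17% where chance gives about 1 in 20. Iars2 was at 120 CPM in 2iL replicate 4 and at 92.9 to 97.0 CPM in the others. Kars was at 55.0 CPM in the shallow 2iL+SA replicate 3 and at 134 to 147 CPM in the others. Rars was at 175 CPM in EpiLC replicate 1 and at 155 to 157 CPM in the others. Wars2 was at 8.04 CPM in 2iL+SA+H replicate 3 and at 11.8 to 12.1 CPM in the others.

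A test of the difference between EpiLC and 2iL picked out 10 effects. For SA these were Wars2 (-2.05), Pars2 (-1.34), Rars2 (-1.25), Mars2 (-1.19), Kars (1.16), Tars2 (0.98) and Qars (0.84), and for hemin Pars2 (1.49), Rars2 (1.12) and Vars (-1.03), as log2 differences, EpiLC minus 2iL.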

How the results depend on the processing

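The mitochondrial calls with SA in EpiLC kept their number, 5 to 6, when each library was left out, and the cytosolic ones, 5 to 6. Without the shallow libraries the cytosolic number was 9. The replicate numbers were not taken to pair the libraries: same-numbered libraries had a median correlation of 0.0156 with 16 of 60 over 0.1, and differently numbered ones a median of -0.0027 with 29 of 180 over 0.1. Of 24 libraries 11 were nearest to their own number. Between EpiLC and EpiLC+SA the 4 same-number correlations were 0.0601 to 0.162, 3 of them over 0.1, and the 12 others -0.123 to 0.0573, a hint of pairing from the data that the labels do not give. With a replicate block the SA difference of Mars2 between states was lost (adjusted p = 0.0503), and a replicate block moved 1 count by over 1.5 times: cytosolic genes with a hemin effect that differed between states went from 1 to 2. Cytosolic counts moved with hemin in EpiLC to 2 by DESeq2, 0 by its size factors, 0 with no filter, 0 with only the compared groups and 3 without the shallow libraries. For EpiLC+SA+H against EpiLC the cytosolic count was 5 by DESeq2, 1 with no filter and 4 without the shallow libraries, and for 2iL+SA against 2iL it was 1 by DESeq2 and 1 without the shallow libraries. Mitochondrial genes called in EpiLC against 2iL numbered 5 by DESeq2, 4 by its size factors, 1 with no filter and 4 without the shallow libraries. For the difference of SA effects the cytosolic count was 6 by DESeq2 and 1 with only the compared groups. For the difference of hemin effects the cytosolic count was 2 by DESeq2, by its size factors, at a minimum count of 20 and with only the compared groups, and 6 without the shallow libraries, while the mitochondrial one was 4 by DESeq2, 1 with no filter, 1 with only the compared groups and 4 without the shallow libraries. The causes of these moves were not tested. With 1 library left out, cytosolic and mitochondrial counts ran from 1 to 5 and 1 to 3 (EpiLC against 2iL), 0 to 1 and 3 to 6 (hemin in EpiLC), 0 to 3 and 0 to 0 (EpiLC+SA+H against EpiLC), 1 to 3 and 3 to 5 (difference of SA effects) and 0 to 2 and 0 to 4 (difference of hemin effects).

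Mitochondrial synthetases had between 7 and 1061 reads per library and cytosolic ones between 31 and 7659, so differences in the low mitochondrial genes are the least precise. In 13 members an exon shares bases with another gene, and only for Aars is such a gene on the same strand (Exosc6, 1326 bases). On the opposite strand, Iars2 shares 2034 bases with Rab3gap2, Hars 195 with Hars2 and Mars 68 with Ddit3, among others. As the strand setting is not given, reads from these stretches could not be assigned with certainty either.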
